A study of Mus musculus with 24 samples.

Results

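A set of 10 genes of the antioxidant response and the metallothionein family was followed in nociceptors of mice with a conditional deletion of Tsc2 and of their controls. The set comprised 7 antioxidant genes (Nfe2l2, Hmox1, Nqo1, Gclm, Gclc, Txnrd1 and Srxn1) and 3 metallothioneins (Mt1, Mt2 and Mt3), taken by symbol from the 47643 gene identifiers of the count tables. All 10 had enough counts to be tested, among 17178 tested genes. RNA-seq was made from GFP-positive cells sorted from the L4 dorsal root ganglia (DRG) of 8 mice aged 8 to 9 weeks, on a mixed C57BL/6 and AJ background. All mice carried Nav1.8-Cre and the Rosa26-ZsGreen reporter; the 4 control mice were Tsc2 flox/+ and the 4 Nav-Tsc2 mice were Tsc2 flox/null, with 2 males (replicates 1 and 2) and 2 females (replicates 3 and 4) in each genotype. Each mouse gave 3 libraries of 100 cells, and the ganglia came from the side opposite a sciatic nerve crush made 3 d earlier.

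Controls also carried Cre and 1 floxed Tsc2 allele, beside a wild-type allele; recombination in the sorted cells was not measured in these data. Nav1.8-Cre acts in most nociceptors and in part of the myelinated DRG neurons, and the null allele of Nav-Tsc2 mice is present in every cell of the animal. Summed over its 3 libraries, a mouse had between 47959617 and 61290435 counts on genes. Levels are given as normalized CPM, the CPM (counts scaled to library size) after TMM scaling. A gene was called higher or lower in edgeR's quasi-likelihood test where its log2 fold change lay beyond 0.5 with an adjusted p below 0.05. Tsc2 itself was lower in Nav-Tsc2 mice, at 8.87 ± 1.52 against 20.9 ± 5.18 normalized CPM (SD, n = 4 mice each; log2 fold change -1.24, SE 0.22, adjusted p = 0.00400). These are bulk samples, in which fewer cells of a type and less RNA per cell cannot be told apart.

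The transcription factor NRF2, encoded by Nfe2l2, is held low by the adaptor KEAP1 and is released when cells meet oxidants or electrophiles. With a small MAF partner it binds antioxidant response elements and drives genes for glutathione synthesis, thioredoxin reduction, quinone reduction and heme breakdown, while BACH1 represses some of the same elements. Metallothioneins are small cysteine-rich proteins that bind zinc and copper; Mt1 and Mt2 are induced by metals through the factor MTF1, by glucocorticoids and by oxidants, whereas Mt3 is the family member characteristic of neurons and responds little to metals.

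The genes differed in direction. In Nav-Tsc2 mice 6 of the 10 genes were higher (Hmox1, Mt2, Srxn1, Mt1, Txnrd1 and Nfe2l2), 2 were lower (Nqo1 and Gclm), and Gclc and Mt3 did not pass the test. Over all tested genes, 9.12% were called higher and 8.00% lower. The levels of the 2 genotypes did not overlap for 8 of the 10 genes, against 26.9% of all tested genes. The median log2 fold change was 0.78 over the 10 genes and 0.01 over all tested genes.

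**Figure D1:**
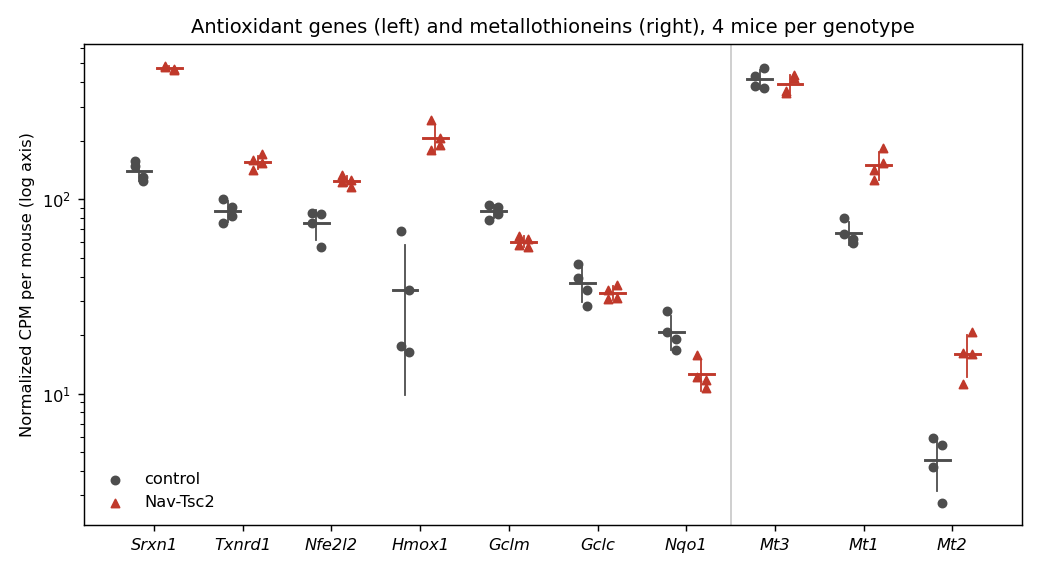
Normalized CPM of the 10 genes in each of 4 control (grey circles) and 4 Nav-Tsc2 (red triangles) mice on a log axis; horizontal bars are means and vertical bars SDs over mice. Srxn1, Txnrd1, Nfe2l2, Hmox1, Mt1 and Mt2 lie higher in every Nav-Tsc2 mouse, Gclm and Nqo1 lie lower, and Gclc and Mt3 overlap.

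**Figure D2:**
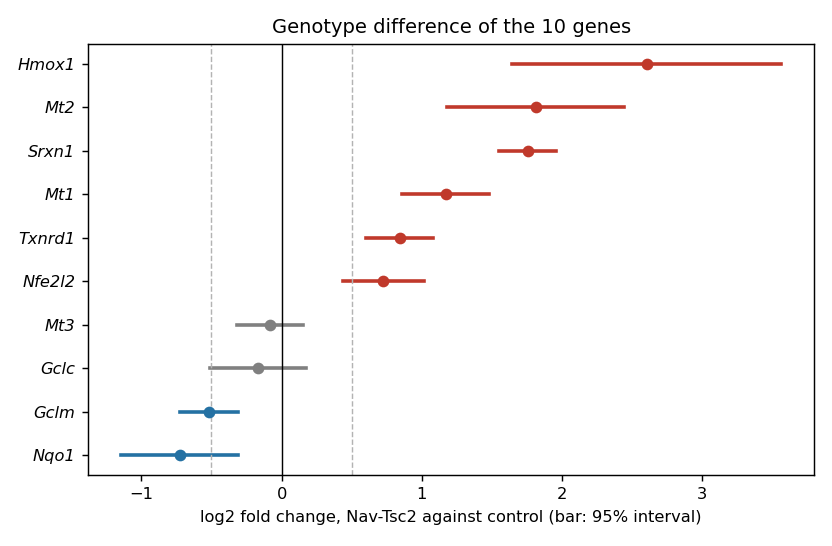
Log2 fold change of each gene, Nav-Tsc2 against control, with its 95% interval from the edgeR fit; red marks genes called higher, blue lower and grey neither, and dashed lines mark the fold limit of 0.5. The values run from -0.73 for Nqo1 to 2.61 for Hmox1.

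Nfe2l2 encodes the regulator NRF2, and its level was higher in Nav-Tsc2 mice. The gene (chr2:75675513-75704641, minus strand, mm10, as are all gene positions given) stood at 85.2, 83.6, 75.6 and 56.5 normalized CPM in control mice 1 to 4. In Nav-Tsc2 mice 1 to 4 it stood at 134, 116, 123 and 125. Every Nav-Tsc2 mouse lay above every control mouse, and control mouse 4 was the lowest of the 8. On the log2 scale Nfe2l2 rose by 0.72 (SE 0.13, 95% interval 0.43 to 1.01, adjusted p = 0.00408).

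Hmox1 encodes heme oxygenase 1, the inducible enzyme that opens heme to biliverdin, carbon monoxide and iron, and it had the largest log2 fold change of the 10 genes. Its levels (chr8:75093621-75100589, plus strand) were 17.6, 16.3, 68.5 and 34.0 normalized CPM in control mice 1 to 4. In Nav-Tsc2 mice they were 255, 206, 179 and 191. The genotypes were widely separated, and the spread was far greater among control mice, with a coefficient of variation of 71.3% against 16.1% in Nav-Tsc2 mice. Control mouse 3 was the highest control. Hmox1 rose by 2.61 on the log2 scale (SE 0.43, 95% interval 1.65 to 3.56, adjusted p = 0.00270), and without control mouse 3 it was 3.19.

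Nqo1 encodes a quinone reductase that uses NAD(P)H and is among the best known targets of NRF2, yet its level was lower in Nav-Tsc2 mice. It stood at 26.5, 19.1, 20.9 and 16.8 normalized CPM in control mice 1 to 4 (chr8:107388225-107403206, minus strand). In Nav-Tsc2 mice it stood at 15.8, 10.7, 12.2 and 11.7. The lowest control mouse and the highest Nav-Tsc2 mouse were close, and 8 of the 12 Nav-Tsc2 libraries lay below all control libraries. Its log2 fold change was -0.73 (SE 0.19, 95% interval -1.14 to -0.31, adjusted p = 0.0225). The call was lost without control mouse 1 or without any of Nav-Tsc2 mice 2, 3 and 4, with adjusted p-values up to 0.0690.

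Glutathione synthesis starts with glutamate-cysteine ligase, which has a catalytic subunit (Gclc) and a modifier subunit (Gclm) that raises its activity. Gclm (chr3:122245557-122270732, plus strand) stood at 93.7, 91.2, 78.6 and 83.7 normalized CPM in control mice 1 to 4. In Nav-Tsc2 mice it stood at 58.4, 62.3, 65.0 and 56.6. The genotypes did not overlap and the mice of each genotype were tightly grouped, with coefficients of variation of 7.96% in control and 6.28% in Nav-Tsc2 mice. Gclm had a log2 fold change of -0.52 (SE 0.09, 95% interval -0.72 to -0.31, adjusted p = 0.00385), close to the fold limit, which it missed without control mouse 1, control mouse 2, Nav-Tsc2 mouse 4, or library A of control mouse 4 (log2 fold changes down in size to -0.48). Its adjusted p stayed at or below 0.0255 in all of the alternatives tried. Exons of other genes cover 4.71% of the exonic bases of Gclm.

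Gclc (chr9:77754535-77794485, plus strand) overlapped between the genotypes. Control mice 1 to 4 had 46.3, 34.2, 39.4 and 28.4 normalized CPM, and Nav-Tsc2 mice had 34.3, 36.1, 30.6 and 31.1. Its log2 fold change was -0.17, with a 95% interval from -0.51 to 0.18 (adjusted p = 0.498). The lower end of the interval lies close to the value of Gclm.

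Txnrd1 and Srxn1 act in the thiol-reducing arm of the response. Txnrd1 encodes the cytosolic thioredoxin reductase, and Srxn1 encodes sulfiredoxin, which repairs overoxidized peroxiredoxins. Both were higher in Nav-Tsc2 mice, and Srxn1 had the smallest adjusted p of the 10 genes.

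Txnrd1 (chr10:82833951-82897712, plus strand) stood at 75.3, 82.0, 100.0 and 90.8 normalized CPM in control mice 1 to 4 and at 141, 170, 159 and 153 in Nav-Tsc2 mice. It rose by 0.84 on the log2 scale (SE 0.11, 95% interval 0.60 to 1.08, adjusted p = 0.000692). The lowest Nav-Tsc2 mouse was well above the highest control mouse.

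Srxn1 (chr2:152105516-152111376, plus strand) stood at 158, 131, 148 and 124 normalized CPM in control mice 1 to 4. In Nav-Tsc2 mice it stood at 477, 461, 486 and 467, with a coefficient of variation of 2.38%. Srxn1 thus had a log2 fold change of 1.75 (SE 0.09, 95% interval 1.55 to 1.96, adjusted p = 8.11e-06). This spread among Nav-Tsc2 mice was the smallest of the 10 genes. Single libraries varied more, from 334 to 695 normalized CPM in Nav-Tsc2 and from 74.2 to 195 in control libraries, and all 12 Nav-Tsc2 libraries exceeded all control libraries.

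The sequences before the start sites of Srxn1, which rose, and of Gclm, which fell, are shown together. Gclm held a match to the core of the antioxidant response element, and Srxn1 held matches to a variant of the core but not to the core itself. Promoter windows from RefSeq (GRCm38.p6), reaching from 250 bases before to 30 bases after the start site, were held for 8 of the 10 genes (Hmox1 and Gclc were not matched) and were searched on both strands. The antioxidant response element core was searched as TGACNNNGC, with the variant TGAGNNNGC beside it. Capitals mark matches to either. The Srxn1 window is chr2:152105274-152105553 and the Gclm window is chr3:122245307-122245586, both on the plus strand.
Srxn1: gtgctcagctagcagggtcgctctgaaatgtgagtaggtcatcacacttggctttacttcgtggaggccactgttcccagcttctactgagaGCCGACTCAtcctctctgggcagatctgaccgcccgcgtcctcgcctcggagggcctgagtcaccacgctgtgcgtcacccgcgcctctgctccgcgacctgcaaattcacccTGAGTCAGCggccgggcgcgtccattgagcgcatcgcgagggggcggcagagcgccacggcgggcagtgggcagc
Gclm: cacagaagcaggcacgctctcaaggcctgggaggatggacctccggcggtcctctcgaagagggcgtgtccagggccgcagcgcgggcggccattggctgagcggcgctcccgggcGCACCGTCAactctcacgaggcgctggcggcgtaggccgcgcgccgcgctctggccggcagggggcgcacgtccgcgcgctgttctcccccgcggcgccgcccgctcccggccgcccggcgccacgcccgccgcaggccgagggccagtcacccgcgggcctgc

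Srxn1 held 0 matches to TGACNNNGC and 2 to the variant TGAGNNNGC, at -158 to -150 and at -45 to -37 from the start site. Of all 32851 windows, 1.62% held at least 2 matches to the variant. The second Srxn1 match lies over a match to the AP-1 motif TGACTCA, of which Srxn1 held 2 (at least 2 in 0.195% of windows). Gclm held 1 match to TGACNNNGC, at -134 to -126 on the minus strand. The windows of Nfe2l2 and Mt2 and 1 of the 3 windows of Txnrd1 also held 1 match each, that of Mt2 lying over a match to TGACTCA. The Nqo1 window held none, and 11.5% of all windows held at least 1. The variant TGAGNNNGC had 1 match in the Mt3 window, and 16.4% of all windows held at least 1. A match describes the letters of these windows and not binding. Bases further from the start sites were not searched, so a window without a match does not show that a gene lacks the element.

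The metallothioneins split by member. Mt1 and Mt2 were higher in Nav-Tsc2 mice, whereas Mt3, the most abundant of the 3, did not pass the test. The 3 genes lie on the plus strand of chromosome 8 within 27.7 kb, in the order Mt3 (chr8:94152607-94154146), Mt2 (chr8:94172664-94173568) and Mt1 (chr8:94179082-94180327), with 18517 bases between Mt3 and Mt2 and 5513 between Mt2 and Mt1. Their promoter windows are printed with matches to the metal response element, the site bound by MTF1, whose core was searched as TGCACNC or TGCGCNC. Capitals mark its matches, in chr8:94178839-94179118 for Mt1, chr8:94172368-94172647 for Mt2 and chr8:94152357-94152636 for Mt3.
Mt1: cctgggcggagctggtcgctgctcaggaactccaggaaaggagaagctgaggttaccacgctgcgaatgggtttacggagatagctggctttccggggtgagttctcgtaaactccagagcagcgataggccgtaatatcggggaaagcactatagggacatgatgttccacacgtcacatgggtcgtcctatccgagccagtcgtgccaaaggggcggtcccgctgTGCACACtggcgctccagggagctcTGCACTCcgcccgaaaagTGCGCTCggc
Mt2: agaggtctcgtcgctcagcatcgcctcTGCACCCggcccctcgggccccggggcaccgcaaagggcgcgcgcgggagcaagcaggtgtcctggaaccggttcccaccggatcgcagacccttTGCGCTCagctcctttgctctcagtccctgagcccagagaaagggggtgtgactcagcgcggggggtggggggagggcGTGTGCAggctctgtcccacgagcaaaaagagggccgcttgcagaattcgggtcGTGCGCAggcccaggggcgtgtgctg
Mt3: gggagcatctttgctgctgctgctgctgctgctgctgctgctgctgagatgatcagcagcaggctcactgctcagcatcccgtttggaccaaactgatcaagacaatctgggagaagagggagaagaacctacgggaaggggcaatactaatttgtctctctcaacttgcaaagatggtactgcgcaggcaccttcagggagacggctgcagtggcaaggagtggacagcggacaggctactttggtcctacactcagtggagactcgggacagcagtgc

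The Mt2 window held 4 matches and the Mt1 window held 3, while 0.405% of all windows held at least 4 and 1.73% at least 3. From the start site, the Mt1 matches lay at -23 to -17, 3 to 9 and 21 to 27. Those of Mt2 lay at -223 to -217, -128 to -122, -50 to -44 and 5 to 11. Both genes thus had matches after the start site, and bases beyond 30 after it were not searched. The Mt3 window held 0, while 24.1% of all windows held at least 1. Outside the family, Gclm held 2, of which 1 overlaps its match to TGACNNNGC, and Srxn1 held 1. Here too a match describes letters and not binding. Whether MTF1 or metals bear on the levels of Mt1, Mt2 and Mt3 was not tested.

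Mt1 stood at 66.0, 62.7, 79.8 and 59.4 normalized CPM in control mice 1 to 4. In Nav-Tsc2 mice it stood at 141, 153, 125 and 184. The lowest Nav-Tsc2 mouse, a female, was well above the highest control mouse. The log2 fold change was 1.17 (SE 0.14, 95% interval 0.86 to 1.48, adjusted p = 0.000478).

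Mt2 was the least abundant of the 10 genes in control mice, at 5.88, 5.45, 4.18 and 2.73 normalized CPM. In Nav-Tsc2 mice it stood at 16.1, 16.0, 11.2 and 20.7. The fewest counts in any mouse were 136, the lowest of the set, and single control libraries ranged from 0.819 to 7.01 normalized CPM. All 12 Nav-Tsc2 libraries still lay above them, from 9.09 to 25.6. The log2 fold change was 1.81 (SE 0.28, 95% interval 1.18 to 2.44, adjusted p = 0.00204). Of the 50-base windows of its main transcript, 45.5% also lie in an overlapping antisense gene of the GENCODE vM21 annotation, Gm45774, which had no row in the count tables. Whether the counting used strand is not given in the sources used here.

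Mt3 stood at 431, 474, 385 and 374 normalized CPM in control mice 1 to 4. In Nav-Tsc2 mice it stood at 353, 420, 362 and 437. The mice of the genotypes were interleaved, and the log2 fold change of -0.08 had a 95% interval from -0.32 to 0.16 (adjusted p = 0.649). A change as large as that of Mt1 or Mt2 lies outside this interval.

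The summed level of Mt1 and Mt2 was 71.5 ± 9.23 normalized CPM in control and 167 ± 28.9 in Nav-Tsc2 mice (SD, n = 4 each), and Mt3 made up 85.2% ± 2.25 of the metallothionein level in control and 70.3% ± 2.06 in Nav-Tsc2 mice. This share ranged from 82.1% to 87.4% in control and from 68.0% to 72.7% in Nav-Tsc2 mice, without overlap. Mt4, which in skin and other stratified epithelia is the typical member, had too few counts to be tested.

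**Figure D3:**
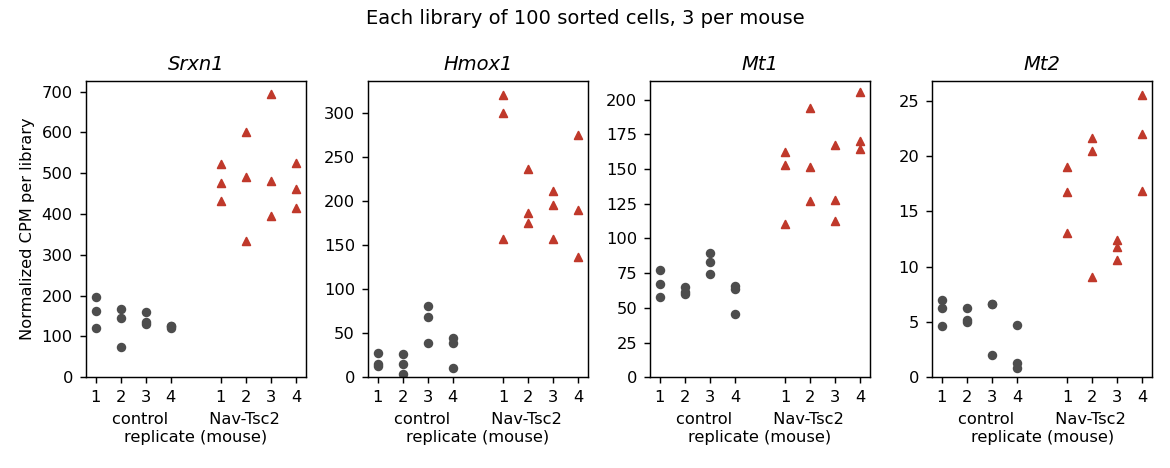
Normalized CPM of Srxn1, Hmox1, Mt1 and Mt2 in each of the 24 libraries of 100 cells, grouped by mouse (x axis), on linear axes from 0; grey circles are control and red triangles Nav-Tsc2. In each of the 4 genes all 12 Nav-Tsc2 libraries lie above all 12 control libraries.

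At the level of single libraries, all 12 Nav-Tsc2 libraries lay above all control libraries for each of the 6 genes called higher. The 3 libraries of a mouse are technical, and the calls were made on their sums, so this is not independent of the calls. The share of all tested genes that separate in this way was not counted. For Nfe2l2 the control libraries ranged from 32.7 to 98.3 and the Nav-Tsc2 libraries from 103 to 147 normalized CPM. For Txnrd1 the ranges were 65.2 to 111 and 125 to 193, and for Mt1 they were 45.9 to 89.5 and 110 to 205. Hmox1 was the most uneven, from 3.38 to 81.2 in control and from 137 to 320 in Nav-Tsc2 libraries. For Gclm 10 of the 12 Nav-Tsc2 libraries lay below all control libraries.

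Per kilobase of the main transcript, which allows genes to be set beside each other, the order of levels changed between the genotypes. In control mice Mt3 led with 776 normalized CPM per kb, followed by Mt1 with 122, Srxn1 with 49.8, Nfe2l2 with 30.4, Txnrd1 with 24.6, Hmox1 with 21.7, Gclm with 15.5, Nqo1 with 13.4, Gclc with 10.8 and Mt2 with 8.93. From Nfe2l2 down to Mt2, neighbours in this order differed by less than the sum of their SDs. In Nav-Tsc2 mice Mt3 still led with 733, then Mt1 with 275, Srxn1 with 168 and Hmox1 with 132. Nfe2l2 followed with 50.2, Txnrd1 with 44.1, Mt2 with 31.4, Gclm with 10.8, Gclc with 9.65 and Nqo1 with 8.11, and here Nfe2l2 and Txnrd1, and Gclm, Gclc and Nqo1, differed from their neighbours by less than the sum of the SDs.

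Within each sex the direction was the same for every gene but Mt3, which lay at -0.23 in males and 0.08 in females on the log2 scale. The response of Hmox1 was the one that stood apart. Its log2 fold change was 3.76 (SE 0.32) in males and 1.85 (SE 0.29) in females, a difference of -1.91 (female minus male, unadjusted p = 0.00168), which did not pass the adjustment in edgeR (adjusted p = 0.266). Hmox1 stood at 17.6 and 16.3 normalized CPM in control males and at 68.5 and 34.0 in control females, while the Nav-Tsc2 males had 255 and 206 and the Nav-Tsc2 females 179 and 191. No gene of the 19346 tested passed for an interaction of genotype with sex in edgeR, where 1736 had an unadjusted p under 0.05. DESeq2 called 376 genes, Hmox1 among them (adjusted p = 0.000280). The other 9 genes had unadjusted p-values from 0.130 to 0.918 in edgeR. With 2 mice per genotype and sex, and with sex following the replicate numbers, the sex difference cannot be told apart from another difference between replicates 1 and 2 and replicates 3 and 4.

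**Figure D4:**
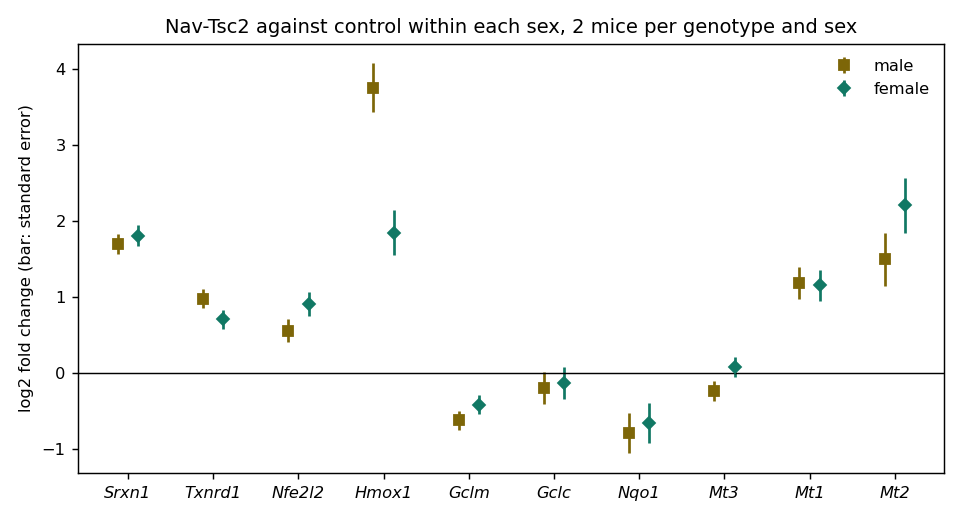
Log2 fold change of each gene, Nav-Tsc2 against control, within males (squares) and females (diamonds), 2 mice per genotype and sex, with standard errors as bars. Hmox1 shows the widest gap, 3.76 in males and 1.85 in females.

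The wider pathway was described with 8 lists that held 104 other genes of redox control and metal handling, of which 100 were tested. Here 15 were higher and 8 lower, so 23.0% were called against 17.1% of all tested genes, and the median log2 fold change was 0.09. The other 77 did not pass the test. The share called was 40.0% for NRF2 regulators, 36.4% for heme and iron, 33.3% for glutathione and 27.3% for quinone and aldehyde detoxification. It was 16.7% for NADPH supply, 14.3% for zinc and copper, 6.67% for thioredoxins and peroxiredoxins and 0% for superoxide and peroxide. These last shares lie below that of all tested genes. Over the 16 alternatives, 6 of the 23 called genes lost their call in at least 1, and 13 of the 77 gained one.

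Of 10 tested NRF2 regulators, 4 were higher and 0 lower. Sqstm1, whose product p62 sequesters KEAP1, rose from 383 ± 36.1 to 835 ± 65.8 normalized CPM (SD, n = 4; log2 fold change 1.13, adjusted p = 8.16e-05), with 17.3% of its exonic bases shared with Mrnip. Nfe2l1, a relative of Nfe2l2, had a log2 fold change of 0.58 and an adjusted p of 0.00765. The other members called were the MAF partner Mafk and the repressor Bach1, both named after their values were seen, and Bach1 lost its call without Nav-Tsc2 mouse 1. Keap1 had a log2 fold change of -0.20 and was not called.

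Of 21 glutathione genes, 2 were higher and 5 lower. Slc3a2, a subunit of the cystine importer, and the glutathione transferase Gsto1 rose, by 0.87 and 1.00 on the log2 scale. Slc7a11, the other subunit of that importer and named after its values were seen, was not called (adjusted p = 0.256 in edgeR). It stood at 0.286 normalized CPM in control and 0.601 in Nav-Tsc2 mice. The transferase Gstt1 fell from 47.3 ± 10.8 to 9.28 ± 2.74 normalized CPM (SD, n = 4; log2 fold change -2.35, adjusted p = 0.000266). Gstm5 fell by 0.65 on the log2 scale, with 13.9% of its exonic bases under an antisense gene. The list's median was -0.06.

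Among 15 genes of thioredoxins and peroxiredoxins 1 was higher, the mitochondrial thioredoxin reductase Txnrd2 (log2 fold change 1.28, adjusted p = 0.00677), and 0 were lower. Txn1 and Txnrd3, named after their values were seen, gained a call as higher in DESeq2 and without control mouse 3. Both also gained it in the limma fit of single libraries. Txn1 (log2 fold change 0.67, adjusted p = 0.0562 in the main edgeR fit) gained it with the replicate block and with sex as a covariate too. Of 5 superoxide and peroxide genes 0 were called in edgeR or DESeq2, 2 had an unadjusted p under 0.05 in edgeR, and 1 of these had an adjusted p under 0.05 with a fold change inside the limit. Sod1, named after its values were seen, gained a call as lower without control mouse 4 and in the limma fit of single libraries (mouse as random effect). Of 6 genes that supply NADPH 1 was called, the isocitrate dehydrogenase Idh1, at 0.60, which lost its call without control mouse 2.

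Of 11 heme and iron genes, 2 were higher and 2 lower. The transferrin receptor Tfrc rose from 71.4 ± 6.56 to 137 ± 9.26 normalized CPM (SD, n = 4; log2 fold change 0.94, adjusted p = 0.000213), and the iron transporter Slc11a2 rose by 0.89 on the log2 scale but lost its call without control mouse 2 or any of Nav-Tsc2 mice 1, 3 and 4. Hmox2, the constitutive heme oxygenase, fell by 0.63, opposite to Hmox1, but 40.2% of its exonic bases are shared with Cdip1. Blvrb, a biliverdin reductase, fell by 0.59 and lost its call in 7 of 16 alternatives.

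Of 11 genes for quinone and aldehyde detoxification, 2 were higher and 1 lower. The carbonyl reductase Cbr1 rose from 61.8 ± 7.27 to 155 ± 19.1 normalized CPM (SD, n = 4; log2 fold change 1.33, adjusted p = 0.000125), unlike Nqo1. Esd rose by 0.70 and the epoxide hydrolase Ephx1 fell by 1.59 on the log2 scale. Of 21 zinc and copper genes 3 were higher and 0 lower (14.3% called, against 17.1% of all tested genes). These were the copper chaperone Atox1 (0.59), the zinc transporter Slc30a4 (1.64) and, named after its values were seen, the zinc exporter Slc30a1 (1.83), a known target of MTF1, which lost its call without Nav-Tsc2 mouse 1 or 4. Mtf1 itself had a log2 fold change of 0.02.

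**Figure D5:**
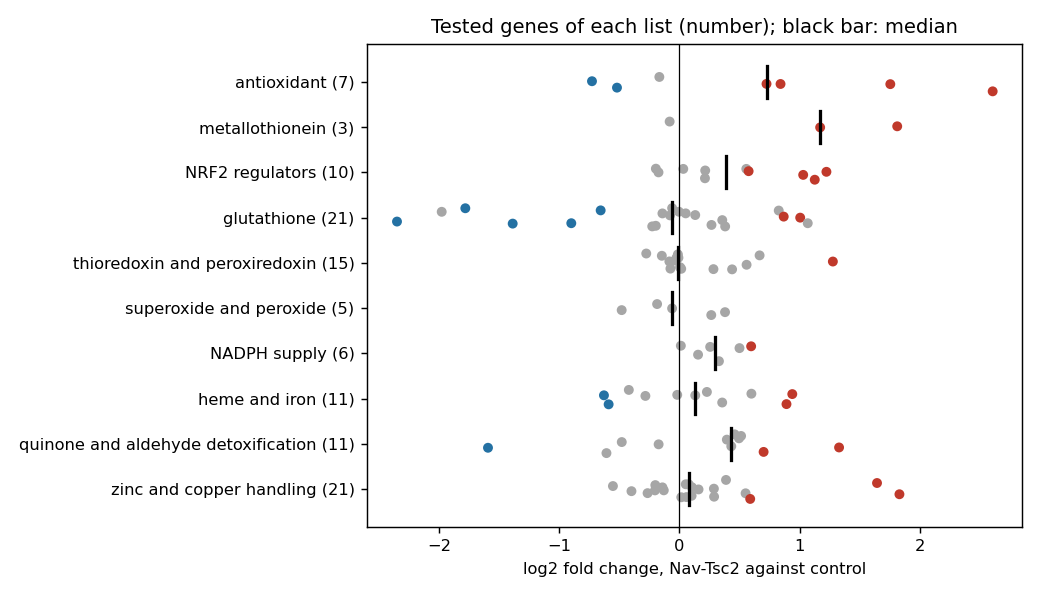
Log2 fold changes, Nav-Tsc2 against control, of the tested genes of the 2 member groups and of 8 further lists, with the number tested in brackets; red marks genes called higher, blue lower and grey neither, and the black bar is the list's median. The medians of the 8 further lists lie between -0.06 and 0.43.

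Profiles over the 8 mice were compared by the root mean square difference of log2 CPM, each gene centred on its own mean. Closest to Srxn1 were Rnh1 (0.141), the glucose transporter Slc2a1 (0.142) and Srrm4os (0.156). Their log2 fold changes between the genotypes were 1.57, 1.95 and 1.99. Closest to Mt1 were Uck2 (0.134), the mitochondrial chaperone Hspa9 (0.135) and Aes (0.136), with log2 fold changes of 1.01, 1.23 and 1.08. The measure includes the genotype difference itself, so it favours genes with a like fold change, and shared regulation was not tested.

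Some markers of other cells differed between the genotypes. The nociceptor label held: Scn10a, the gene of Nav1.8, stood at 670 normalized CPM in control and 608 in Nav-Tsc2 mice, and the 10 nociceptor markers together at 16579 to 26492 and 15406 to 19256, with 1 higher and 2 lower. Of 4 markers of other neurons 0 were called in edgeR and 1 had an unadjusted p under 0.05. The summed level of 12 glial markers was 1581 to 1867 normalized CPM in control and 640 to 974 in Nav-Tsc2 mice, but S100b was the 1 gene called (939 against 98.6 normalized CPM). Without S100b the sums overlapped, at 619 to 902 and 612 to 852, and the 12 markers had a median fold change of 0.06 on the log2 scale. Of 7 endothelial markers 4 were tested and 3 were higher, and their sum was 0.508 to 2.13 in control and 7.81 to 20.6 in Nav-Tsc2 mice, while Cdh5 and Cldn5 were under 1 CPM in every mouse. Of 8 macrophage markers 5 were tested and 1 was higher, and their sum was 1.77 to 7.73 in control and 7.90 to 19.4 in Nav-Tsc2 mice, while C1qa, Ptprc and Adgre1 were under 1 CPM in every mouse.

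The part of these cells in the levels of Hmox1, Mt1 and Mt2 was not tested. The Nav-Tsc2 library with the most Hmox1, at 320 normalized CPM, had a macrophage sum of 8.51, and the library with the largest macrophage sum, 37.5, had 190 normalized CPM of Hmox1. The control library with the largest macrophage sum, 15.5, had 38.9. For the endothelial sum, the Nav-Tsc2 library with the most Hmox1 had 12.9. The Nav-Tsc2 library with the largest endothelial sum, 28.8, had 195 normalized CPM of Hmox1, and the control library with the largest, 6.97, had 68.6. These are single libraries within a genotype, and they do not bear on the difference between the genotypes. Of 4 pericyte markers 3 were tested and 2 were higher, with sums of 4.39 to 45.6 and 18.5 to 147. Fibroblast sums overlapped (68.2 to 235 and 112 to 193), and 0 of 5 fibroblast genes were called in edgeR or had an unadjusted p under 0.05. Red blood cell markers summed to 1.63 to 2.80 in control and 0.473 to 0.672 in Nav-Tsc2 mice, and of 3 tested 0 were called in edgeR and 3 had an unadjusted p under 0.05. The 8 genes of dissociation and stress summed to 307 to 557 in control and 735 to 796 in Nav-Tsc2 mice, with 2 higher (Atf3 and Hspb1) and 2 lower (Fos and Dnajb1), and their part in the results was not tested either.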

How the data were processed

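RNA-seq of 24 libraries (single reads, no molecular identifiers) was analysed from the count files. The authors aligned reads to mm10 with STAR, counted them per gene with HTSeq and deposited raw counts per library (versions are not given in the sources used here). Reads that HTSeq did not assign to a gene averaged 48.8% in control and 51.1% in Nav-Tsc2 libraries and were left out. A second deposited table holds the authors' DESeq2 comparison and values scaled by size factors, and was not used. Of 47643 identifiers, 47224 matched a symbol in GENCODE vM21. Libraries held between 8339220 and 34228180 counts on genes, and 0 pairs had identical counts.

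Counts were summed over the 3 libraries of each mouse and tested in R 4.3.3 with edgeR 4.0.16 (TMM, filterByExpr, quasi-likelihood F-test, Benjamini-Hochberg adjustment over all tested genes). The standard error of a log2 fold change is its size over the root of F. Alternatives used DESeq2 1.42.0, limma 3.58.1 with the mouse as a random effect, other scalings, no low-count filter, sex as a covariate, a replicate block, leaving out each mouse, and, added after seeing the data, leaving out library A of control mouse 4, which correlated least with the other libraries of its mouse.

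The 10 genes, the lists and the tests were chosen with earlier results of these data known. The genes named are the 10 members, Tsc2, from each list the 2 called genes with the smallest adjusted p in each direction, and the 3 genes closest in profile to Srxn1 and to Mt1. Marker genes, Keap1, Mtf1, Mt4, Mafk, Bach1, Sod1, Slc30a1, Slc7a11, Txn1 and Txnrd3 are named beside these. Deviations from the genotype mean of mice with the same replicate number correlated across 8445 genes at 0.207, 0.204, 0.128 and 0.220, all above the limit of 0.1 set for a pairing. Mice of the same sex with unequal numbers correlated at 0.220, 0.204, 0.131 and 0.0836, so pairing by number and sex cannot be told apart. The values reported come from the fit without the block, and the blocked fit is an alternative.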

Additional observations from a re-analysis of the deposited data

How the results depend on the processing

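The 6 genes called higher were called in all 16 alternatives, with adjusted p-values up to 0.0171, and Gclc and Mt3 were called in 0. With the replicate block, 6 of the 10 genes were again higher and 2 lower. The adjusted p of each called gene was larger in this edgeR fit than in the main one. It ran from 0.000507 for Srxn1 to 0.0255 for Gclm, with 0.00809 for Mt1 and 0.0139 for Mt2. The count of lower genes, 2 as reported, ranged from 0 to 2 when each mouse was left out and was 1 without library A of control mouse 4. It was 0 without control mouse 1 or without Nav-Tsc2 mouse 4, where Gclm missed the fold limit and Nqo1 the adjusted p. Among the 10 genes, the count with an interaction of genotype and sex was 0 in edgeR with the low-count filter, 1 in edgeR with no low-count filter and 1 with DESeq2, in both cases Hmox1. The scaling alternatives left the median over all tested genes within 0.1 of 0. With 4 mice per genotype and levels under 10 CPM in control mice, Mt2 has the largest standard error of its log2 fold change after Hmox1.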
